A study of Mus musculus with 3 samples.

Results

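DNA replication and nucleotide supply genes encode the proteins that copy the genome in S phase and the enzymes that make the deoxynucleotides for it. The 46 genes taken here were named by symbol, with no threshold on their values, but with earlier results of these data known. Of these, 45 were read by at least 1 probe set annotated to their symbol alone. These 45 genes had 102 probe sets, out of 18193 genes and 34945 such probe sets on the array. *Chaf1a*, the large subunit of the histone chaperone CAF-1, was not analysed here because no probe set was annotated to it alone.

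The arrays were mouse 430 2.0 Affymetrix arrays, each hybridised with biotin-labelled material from total RNA, and there were 3 of them, 1 per group. The NK1.1+ KO array held NK1.1+ CD8+ T cells from Tgfbr2 fl/fl x CD4-Cre mice, and the NK1.1− KO array held NK1.1− CD8+ T cells from mice of the same genotype, aged 15 to 17 days. The control array held T cells of Tgfbr2 fl/wt x CD4-Cre littermates, which the sample label calls NK1.1− and the design text describes once as total CD8+ cells, and which of these gates applied is not settled. *Tgfbr2* encodes the type II receptor for TGF-β, and NK1.1 is a surface receptor of natural killer cells that some T cells carry. CD4-Cre deletes floxed DNA in thymocytes that express CD4, so that later CD4+ and CD8+ T cells both carry the deletion. Every group carried CD4-Cre and at least 1 floxed allele, and the control is therefore heterozygous rather than untouched. The number of mice behind each array was not stated in the labels.

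With 1 array a group there is no spread between mice, no test and no p-value, and each difference given describes these 3 arrays. Values are probe set intensities on the linear scale, and each gene is represented by the probe set that was brightest on average. A gene was taken as measured at an intensity of 9.57 or more, a level set from 142 probe sets of genes that T cells do not use, such as olfactory receptors and lens crystallins. A gene measured on at least 1 array of a pair was called higher or lower where the intensities differed by 2-fold or more, with values under the level raised to it, and a fold that rests on a raised value is written as "at least". Of the 45 genes, 43 reached the level in NK1.1+ KO cells, 44 in NK1.1− KO cells and 42 in control cells.

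The arrays differed in ways that touch every comparison with NK1.1+ KO cells. The 18 hybridisation control probe sets, which read RNA spiked in at fixed amounts, read 2.36-fold more on the NK1.1+ KO array than they did for control cells, and 2.52-fold more than for NK1.1− KO cells. The 3′ to 5′ ratio of *Actb*, a sign of how complete the labelled transcripts were, was 81.9 for NK1.1+ KO cells, 12.3 for NK1.1− KO cells and 6.02 for control cells, whereas that of *Gapdh* was 10.8, 26.7 and 17.8. Summed levels of 9 T cell markers came to 4558 for NK1.1+ KO cells, 10010 for NK1.1− KO cells and 14610 for control cells. The summed level of 11 monocyte and macrophage markers was 9377, 204 and 144 in the same order, and 1 marker gave 7666 of the 9377. Of these 11, 7 were measured in NK1.1+ KO cells, 5 in NK1.1− KO cells and 4 in control cells, with *Cd14*, *Itgam*, *Ms4a7* and *C1qa* under the level on all 3. B and plasma cell markers summed to 2633, 505 and 392, and 1 marker gave 2282 of the 2633. *Tgfbr2* itself read 1808, 1271 and 2634 on its brightest probe set; where that probe set lies relative to the floxed part is not known here, so it does not check the deletion.

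Before S phase, the origin recognition complex (ORC), CDC6 and CDT1 load the MCM2 to MCM7 helicase onto origins, which is called licensing. CDC45, the GINS complex and MCM10 then turn the loaded helicase into a moving fork, where the primase and the α, δ and ε polymerases work with the sliding clamp PCNA. Many of these genes are transcribed by E2F factors as cells enter S phase, and naive CD8+ T cells, which rest outside the cell cycle, express little of them until they are activated. In young mice T cells also divide in the periphery as the T cell pool fills.

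Promoter sequences are shown because many of these genes are known E2F targets. Windows of 300 bases, from 250 before to 50 after each annotated start, were available from RefSeq (GRCm38.p6) for 37 of the 45 genes, in 43 windows. An E2F-type motif, here TTTCGCGC, TTTGGCGC, TTTCCCGC or TTTGCCGC on either strand with overlaps allowed, was present in 15 of the 43 windows (34.9%). The same motif was in 457 of 11307 windows (4.04%) of genes measured on at least 1 of the arrays and in 744 of 32851 windows (2.26%) of all genes. Median GC content was 57.7% in the members' windows and 60.3% in those of the measured genes, and the median number of CpG dinucleotides was 21 and 20. CCAAT, the letters read by the factor NF-Y, was in 26 of the members' 43 windows (60.5%) and in 37.7% of those of measured genes. The 160 bases before the start are printed for the 7 genes called above control in NK1.1− KO cells that hold an E2F-type match within that stretch. They lie at Mcm5 chr8:75109349-75109508 (plus strand), Mcm6 chr1:128359706-128359865 (minus strand), Cdc6 chr11:98907991-98908150 (plus strand), Gins3 chr8:95633399-95633558 (plus strand), Pola1 chrX:93632156-93632315 (minus strand), Rfc3 chr5:151651209-151651368 (minus strand) and Dtl chr1:191575545-191575704 (minus strand). Each sequence runs 5′ to 3′ on the gene's strand and ends at the base before the start, with E2F-type matches in capitals. In *Mcm5* and *Mcm6* a pair of matches on opposite strands overlap.
Mcm5: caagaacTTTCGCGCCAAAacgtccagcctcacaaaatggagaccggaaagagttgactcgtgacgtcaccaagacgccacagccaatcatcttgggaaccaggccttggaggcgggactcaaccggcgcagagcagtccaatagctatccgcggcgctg
Mcm6: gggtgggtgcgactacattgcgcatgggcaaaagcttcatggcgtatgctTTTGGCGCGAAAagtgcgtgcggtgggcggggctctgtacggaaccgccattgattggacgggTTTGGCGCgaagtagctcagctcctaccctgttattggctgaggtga
Cdc6: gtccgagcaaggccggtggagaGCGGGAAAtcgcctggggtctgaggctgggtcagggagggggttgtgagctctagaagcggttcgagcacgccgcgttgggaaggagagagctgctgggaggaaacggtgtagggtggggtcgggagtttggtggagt
Gins3: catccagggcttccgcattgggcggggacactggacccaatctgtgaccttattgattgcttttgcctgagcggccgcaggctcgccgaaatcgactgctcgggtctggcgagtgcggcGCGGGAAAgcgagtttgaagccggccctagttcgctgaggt
Pola1: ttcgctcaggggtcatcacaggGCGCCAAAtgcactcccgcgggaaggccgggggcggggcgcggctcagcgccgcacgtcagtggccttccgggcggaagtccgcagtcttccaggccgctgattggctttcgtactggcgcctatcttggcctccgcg
Rfc3: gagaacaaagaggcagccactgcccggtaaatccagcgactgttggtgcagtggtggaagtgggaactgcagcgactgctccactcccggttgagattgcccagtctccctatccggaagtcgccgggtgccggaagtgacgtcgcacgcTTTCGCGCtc
Dtl: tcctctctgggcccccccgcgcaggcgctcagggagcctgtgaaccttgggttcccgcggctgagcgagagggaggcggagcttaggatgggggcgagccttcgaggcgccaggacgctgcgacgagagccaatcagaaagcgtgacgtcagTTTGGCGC

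The match lay at different distances from the start in these genes. It began 8 bases before the start in *Dtl* and 10 bases before it in *Rfc3*, against 138 bases before it in both *Cdc6* and *Pola1*. Of the windows of members called higher in NK1.1− KO cells 9 of 23 (39.1%) held a match, against 6 of 20 (30%) of the windows of members not called higher. A match is a stretch of letters and does not show that a factor binds there.

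**Figure D1:**
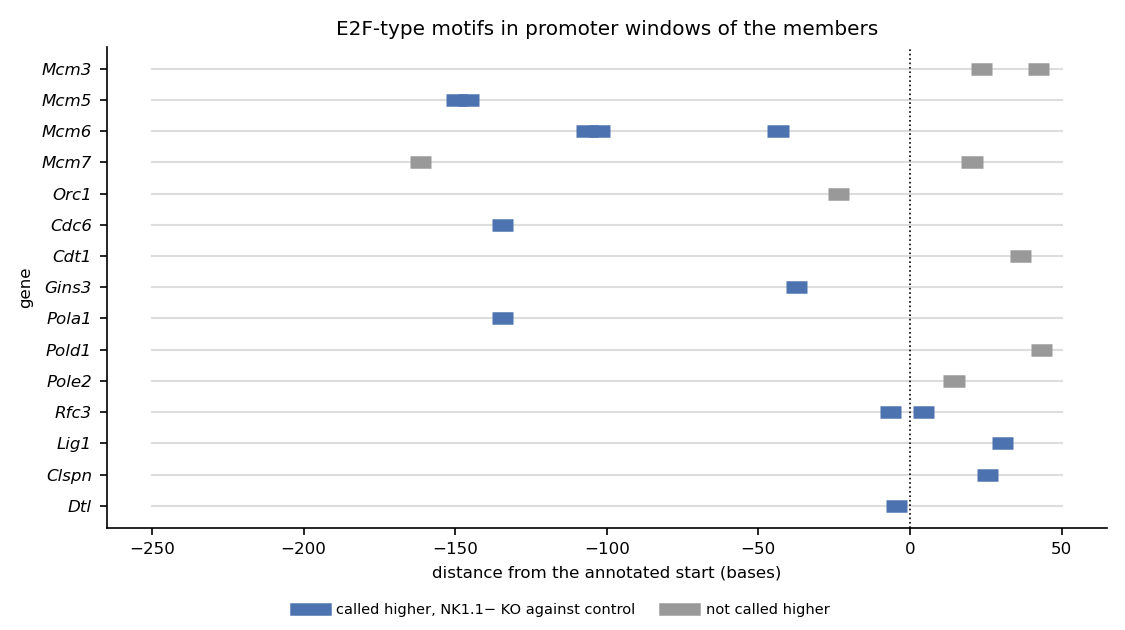
Position of E2F-type motif matches (bars, 8 bases each) in the promoter windows of the 15 members that hold one, by distance from the annotated start in bases. Blue bars mark members called higher in NK1.1− KO than control cells and grey bars members not called higher. Matches lie on both sides of the start in both sets.

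Nearly all of the replication genes read higher in NK1.1− KO than control cells. Of 44 measured members, 27 (61.4%) were called higher and 0 lower, while 8.04% of all measured genes were called higher and 5.54% lower. The median member was 2.39-fold higher (log2 difference 1.26), whereas the median of all measured genes was 0.01. On the probe sets used, the difference was above 0 for 42 of the 44 and below 0 for *Orc2* and *Pole2*. The largest was 7.05-fold for *Clspn*. In bulk RNA such as this, a larger share of cells in S phase and more transcript in each such cell cannot be told apart. Genes listed as markers of other cells also differed between these arrays. In NK1.1− KO cells 3 of 4 measured NK cell markers were called above control. The 4 measured were *Klrk1*, *Klre1*, *Eomes* and *Tyrobp*, while *Ncr1* and *Fcer1g* were under the level in both groups. The summed level of the list was 2251 in NK1.1− KO cells and 650.5 in control cells. Dendritic cell markers summed to 215 in NK1.1− KO cells and 37.4 in control cells, with *Flt3*, *Xcr1* and *Siglech* under the level in both. Of the 2 measured dendritic cell markers 1 was called higher, at a log2 difference of 4.24, and the other differed by 0.08. Most of each NK1.1− KO sum came from 1 marker, at 2085 of 2251 for NK cells and 187 of 215 for dendritic cells. Whether such cells were present, and their part in the result, was not tested. The 27 calls became 14 where each gene was represented by the mean of all its probe sets.

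In NK1.1+ KO cells the same genes lay mostly below control. Of 44 measured members, 15 (34.1%) were called lower and 1 was called higher, beside 22.8% of all measured genes lower and 9.83% higher. The median member differed by -0.73 on the log2 scale, against -0.17 for all genes. The medians of 9 housekeeping genes and 9 T cell markers in that comparison were -0.79 and -1.77, so the members' median was not below theirs. Against NK1.1− KO cells, NK1.1+ KO cells had 34 of 45 measured members (75.6%) called lower and 0 higher, beside 21.2% of all genes lower and 6.53% higher. The median log2 difference in that comparison was -1.93 for the members and -0.24 for all genes. The 3 comparisons share arrays and so do not support each other. The count of 15 was 24 with probe sets that carry no suffix, 34 with scaling to the hybridisation controls and 9 with a higher level of measurement, and the part of RNA completeness and of other cells in it was not tested.

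**Figure D2:**
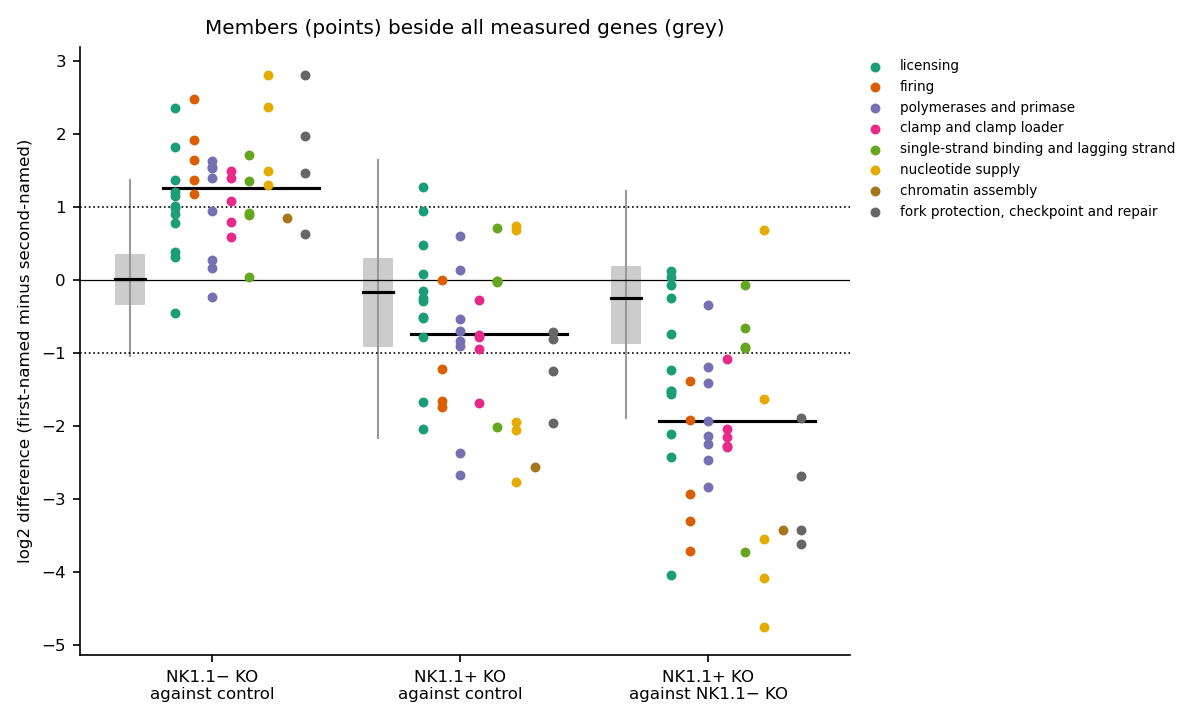
Log2 difference in intensity for each member (points, coloured by role) in the 3 comparisons, beside all measured genes (grey box from the 25th to the 75th percentile, line from the 5th to the 95th). Horizontal bars are medians, at 1.26, -0.73 and -1.93 for the members, and dotted lines mark the 2-fold limits.

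Set in order, 41 members were measured on all 3 arrays. The NK1.1− KO array gave the highest value for 37 of them (90.2%), and for 3165 of 8918 genes overall (35.5%). The NK1.1+ KO array gave the lowest value for 34 (82.9%), and for 4860 of the 8918 genes (54.5%). The control array was the lowest for the other 7.

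**Figure D3:**
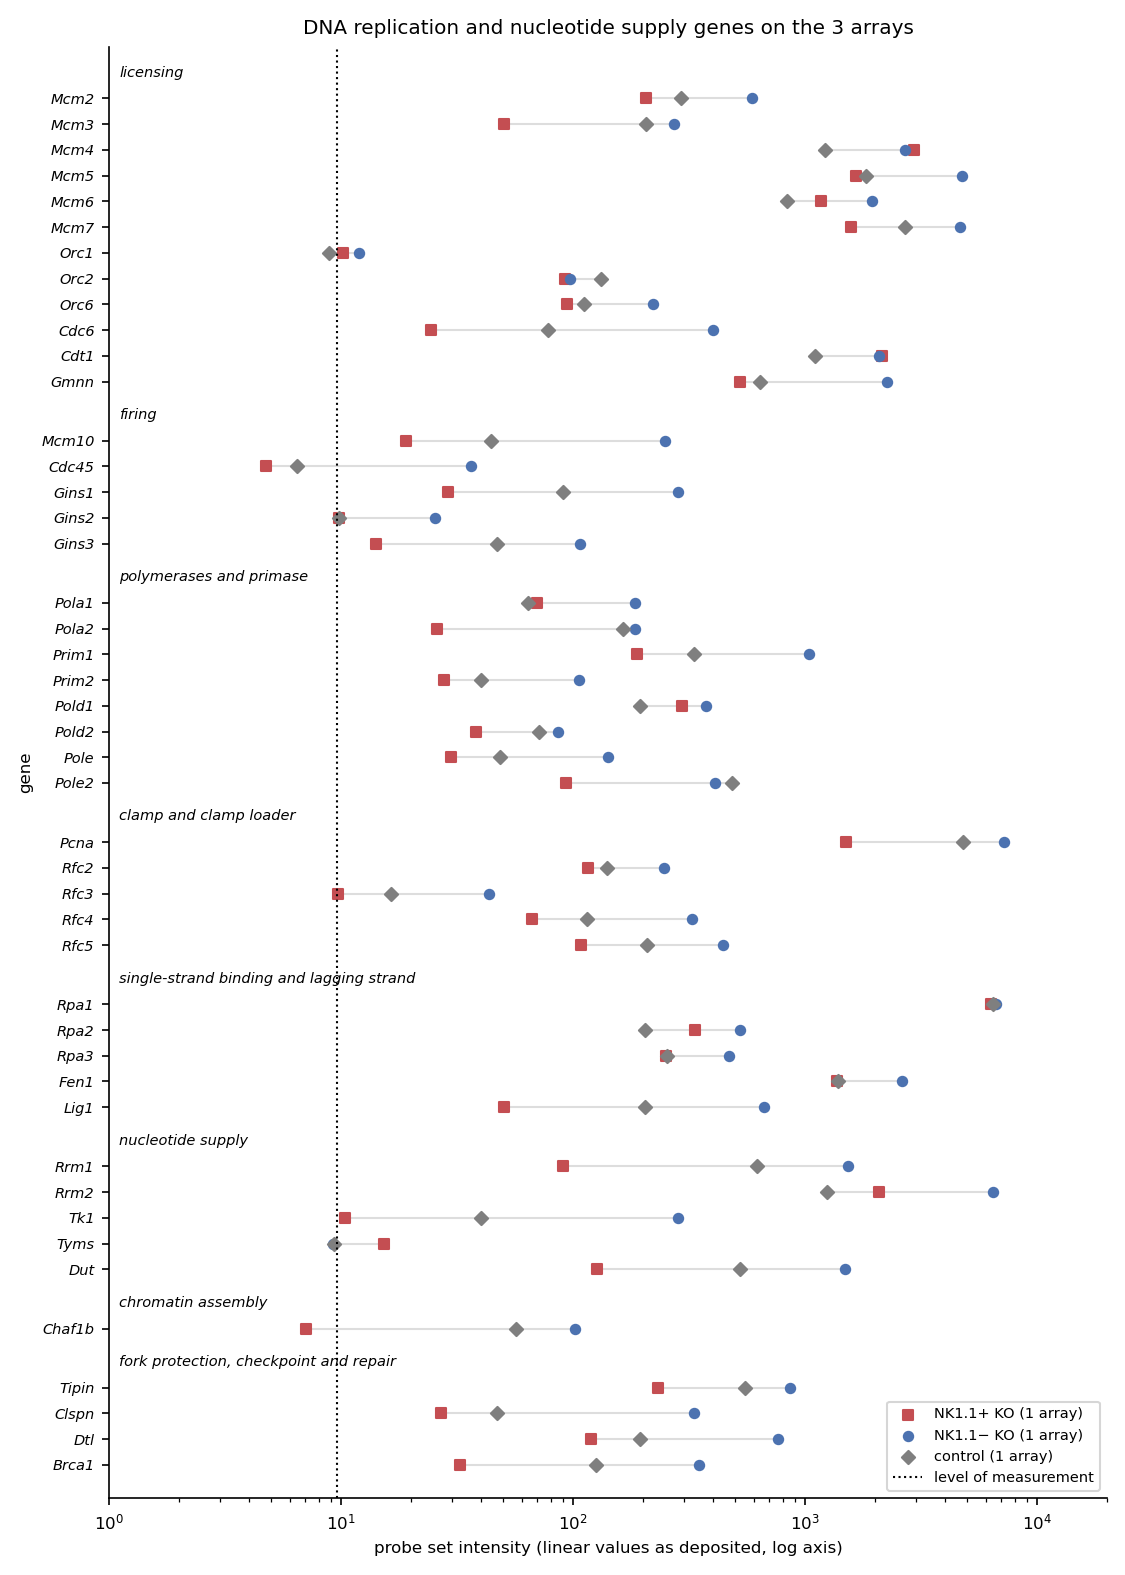
Intensity of each of the 45 members on the NK1.1+ KO (square), NK1.1− KO (circle) and control (diamond) arrays, 1 array each, on a log axis, with the level of measurement dotted. The circle is the rightmost mark in most rows, and *Mcm4*, *Cdt1*, *Orc2*, *Pole2* and *Tyms* are the rows where it is not.

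Licensing genes differed widely in how far the arrays stood apart. In NK1.1− KO cells 6 of the 12 were called above control cells. *Cdc6*, whose protein brings the MCM helicase to ORC, read 24.4 in NK1.1+ KO cells, 401 in NK1.1− KO cells and 77.9 in control cells. It was 5.15-fold higher in NK1.1− KO cells and 3.19-fold lower in NK1.1+ KO cells than control cells, and 16.4-fold lower in NK1.1+ than in NK1.1− KO cells. *Gmnn*, which encodes the inhibitor geminin that binds CDT1 and prevents relicensing, read 522 in NK1.1+ KO cells, 2258 in NK1.1− KO cells and 636 in control cells. NK1.1− KO cells thus stood 3.55-fold above control cells, while the NK1.1+ KO and control values lay close together. *Cdt1*, the loader that geminin blocks, read 2143 in NK1.1+ KO cells, 2077 in NK1.1− KO cells and 1108 in control cells, and passed the 2-fold limit in neither KO group. On its measured unsuffixed probe set *Cdt1* read 139, 248 and 172 in the same order. There NK1.1+ KO cells lay below control cells, at a log2 difference of -0.31.

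Among the helicase subunits, *Mcm5* read 1661 in NK1.1+ KO cells, 4749 in NK1.1− KO cells and 1833 in control cells. It was 2.59-fold higher in NK1.1− KO than control cells, and *Mcm2*, *Mcm4* and *Mcm6* were 2.02-fold, 2.22-fold and 2.32-fold higher. These are suffixed probe sets, whose names carry the letter a, s or x before "_at", and on the unsuffixed sets all 4 calls were lost, with log2 differences of 0.07 for *Mcm2*, 0.37 for *Mcm4*, 0.88 for *Mcm5* and 0.59 for *Mcm6*. *Mcm7* read 1583 in NK1.1+ KO cells, 4652 in NK1.1− KO cells and 2705 in control cells, and *Mcm3* read 50.5, 271 and 207 in the same order; neither was called between NK1.1− KO and control cells. The probe sets of *Mcm7* alone ran from -0.39 to 1.27 in that comparison, so the subunits cannot be ordered among themselves. *Mcm3* was 4.10-fold lower in NK1.1+ KO than control cells. *Mcm4* was the only member called higher in NK1.1+ KO than control cells, at 2944.5 against 1215, and its unsuffixed probe set gave the opposite direction.

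On the probe sets used, no ORC gene was called against control cells. *Orc2* read 92.5 in NK1.1+ KO cells, 97.1 in NK1.1− KO cells and 132 in control cells. On this probe set it was the licensing gene that lay below control on both KO arrays. Its other measured probe set read 17.5, 55.5 and 44.1, with a log2 difference of 0.33 between NK1.1− KO and control cells. Between NK1.1+ KO and control cells that set gave -1.33, past the limit for a lower call. *Orc6* read 94.0, 221 and 112 in the same order, 1.98-fold higher in NK1.1− KO than control cells and so just under the limit. *Orc1*, at 10.15, 11.97 and 8.90, was too close to the level of measurement on every array to order.

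In NK1.1− KO cells all 5 firing genes were called above control cells, with a median log2 difference of 1.65. *Mcm10*, which acts with CDC45 and GINS as origins fire, read 19.1 in NK1.1+ KO cells, 249 in NK1.1− KO cells and 44.4 in control cells. That is 5.62-fold higher in NK1.1− KO than control cells, and 13.1-fold lower in NK1.1+ than in NK1.1− KO cells. On the probe set used, *Cdc45* read 36.3 in NK1.1− KO cells and was under the level in both other groups. There it was at least 3.79-fold higher in NK1.1− KO cells than in either. The other *Cdc45* probe set did not show this, with 13.0 in NK1.1+ KO cells, 12.8 in NK1.1− KO cells and 12.8 in control cells. The GINS subunits *Gins1*, *Gins2* and *Gins3* were 3.14-fold, 2.60-fold and 2.28-fold higher in NK1.1− KO than control cells. *Gins1* read 28.8 in NK1.1+ KO cells, 284 in NK1.1− KO cells and 90.5 in control cells, and *Gins3* read 14.1, 107 and 47.1. Both were also called lower in NK1.1+ KO than control cells, by 3.15-fold and 3.34-fold. However, each had a dim second probe set that was called in neither comparison with control cells. For *Gins3* that set gave log2 differences of 0.12 in NK1.1− KO cells and -0.05 in NK1.1+ KO cells. *Gins2* was at the level in NK1.1+ KO and control cells.

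Of the 8 polymerase and primase genes, NK1.1− KO cells had 4 called above control cells, namely *Pola1*, *Prim1*, *Prim2* and *Pole*. The call of *Prim2* was lost on its unsuffixed probe set, at a log2 difference of 0.34. *Prim1*, the catalytic subunit of primase, read 188 in NK1.1+ KO cells, 1036 in NK1.1− KO cells and 333 in control cells, a 3.11-fold difference between NK1.1− KO and control cells. *Pola1*, the catalytic subunit of polymerase α, read 69.9, 185 and 63.7 in the same order, and *Pole*, that of polymerase ε, read 29.7, 141 and 48.4. Both are bound by a smaller partner subunit. *Pola2* read 25.8 in NK1.1+ KO cells, 184 in NK1.1− KO cells and 164 in control cells. *Pole2* read 93.2 in NK1.1+ KO cells, 409 in NK1.1− KO cells and 482 in control cells. Neither partner was called between NK1.1− KO and control cells, while NK1.1+ KO cells stood 6.37-fold below control cells for *Pola2* and 5.17-fold below them for *Pole2*. The polymerase δ subunits *Pold1* and *Pold2* were called in neither KO group against control cells on the probe sets used. On its unsuffixed probe set *Pold1* turned direction between NK1.1+ KO and control cells, with a log2 difference of -1.77, where the set used gave 0.60.

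The sliding clamp *Pcna* was the brightest of the 45 genes in NK1.1− KO cells, with 1495 in NK1.1+ KO cells, 7205 in NK1.1− KO cells and 4789 in control cells. Intensities of different probe sets do not rank transcripts by amount. NK1.1− KO cells were 1.5-fold above control, under the limit, while NK1.1+ KO cells were 3.20-fold below it. The clamp loader (RFC) opens PCNA and places it on DNA. *Rfc4* read 66.5 in NK1.1+ KO cells, 324 in NK1.1− KO cells and 114 in control cells, 2.83-fold higher in NK1.1− KO than control cells. *Rfc3* and *Rfc5* were also called higher, by 2.63-fold and 2.13-fold, and *Rfc2* was not, with a log2 difference of 0.80. All 5 clamp and loader genes were called lower in NK1.1+ than in NK1.1− KO cells.

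Single-strand binding and lagging-strand genes held the most even member of all on the probe sets used. *Rpa1*, the large subunit of replication protein A, read 6344 in NK1.1+ KO cells, 6649 in NK1.1− KO cells and 6447 in control cells. *Rpa2*, another subunit, read 335, 526 and 204 in the same order and was called higher in NK1.1− KO than control cells. *Lig1*, the ligase that seals Okazaki fragments, differed far more than its neighbours in this group. It read 50.3 in NK1.1+ KO cells, 668 in NK1.1− KO cells and 204 in control cells, 3.28-fold higher in NK1.1− KO cells and 4.05-fold lower in NK1.1+ KO cells than control cells. *Fen1*, the flap nuclease that acts just before the ligase, read 1375, 2623 and 1390, and *Rpa3* read 250.1, 471 and 253. NK1.1+ KO and control cells had nearly the same value of *Fen1* on that probe set only, since its other one read 18.2, 124 and 97.6, a log2 difference of -2.42 between NK1.1+ KO and control cells.

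Nucleotide supply genes showed the widest gap between the KO arrays, with a median log2 difference of -3.55 between NK1.1+ and NK1.1− KO cells over 5 genes. *Tk1*, the thymidine kinase of cycling cells, read 10.4 in NK1.1+ KO cells, 282 in NK1.1− KO cells and 40.3 in control cells. It was 7.01-fold higher in NK1.1− KO cells and 3.86-fold lower in NK1.1+ KO cells than control cells. Its 27.1-fold difference between the KO arrays was the largest of any member. The NK1.1+ KO value of *Tk1* lay close to the level of 9.57, so the size of that difference depends on the level. Over 10 other settings the log2 difference ran from -4.88 to -2.38. *Dut*, which removes dUTP so that uracil is kept out of DNA, read 127, 1489 and 526 in the same order, 2.83-fold higher in NK1.1− KO cells and 4.14-fold lower in NK1.1+ KO cells than control cells. Ribonucleotide reductase makes deoxynucleotides with a large subunit from *Rrm1* and a small subunit from *Rrm2*. *Rrm1* read 90.8 in NK1.1+ KO cells, 1531 in NK1.1− KO cells and 619.8 in control cells, and *Rrm2* read 2074, 6431 and 1237. In NK1.1− KO cells both subunits were called higher than control, by 2.47-fold for *Rrm1* and 5.20-fold for *Rrm2*. The other measured probe set of *Rrm1* did not show this, with 16.0, 68.6 and 72.3 and a log2 difference of -0.08 between NK1.1− KO and control cells. In NK1.1+ KO cells *Rrm1* was 6.82-fold below control while *Rrm2* was 1.68-fold above it on the probe set used. *Tyms*, thymidylate synthase, was under or near the level on its own probe sets, with 15.4, 9.27 and 9.34.

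The remaining members act beside the fork. *Clspn*, whose protein claspin carries the replication checkpoint signal to CHK1, read 27.1 in NK1.1+ KO cells, 332.0 in NK1.1− KO cells and 47.1 in control cells. *Dtl*, a ubiquitin ligase receptor that removes CDT1 on PCNA-loaded DNA, read 119, 766 and 194, 3.95-fold higher in NK1.1− KO than control cells. *Brca1*, a homologous recombination gene, read 32.4, 348 and 126, 2.77-fold higher in NK1.1− KO cells and 3.88-fold lower in NK1.1+ KO cells than control cells. *Tipin*, a fork protection gene, read 233, 858 and 553, and was 2.37-fold lower in NK1.1+ KO than control cells but not called between NK1.1− KO and control cells. *Chaf1b*, the middle subunit of the CAF-1 histone chaperone, read 7.03 in NK1.1+ KO cells, 102 in NK1.1− KO cells and 56.4 in control cells. It was therefore at least 5.89-fold lower in NK1.1+ KO than control cells, and 1.81-fold higher in NK1.1− KO than control cells, under the limit.

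How far a gene's probe sets agreed gives the only error these arrays hold. For 27 members with several measured probe sets, the pooled SD of the log2 difference between NK1.1− KO and control cells was 0.591, and 0.465 over all such genes. Between NK1.1+ KO and control cells it was 1.27 for 23 members and 0.896 over all such genes. Between NK1.1+ and NK1.1− KO cells it was 1.19 for 27 members and 0.797 over all such genes. An SD above the limit of 1 means that many single calls against NK1.1+ KO cells rest on which probe set was read. Between NK1.1+ KO and control cells the probe sets of 10 of the 23 members had opposite signs. The same held for 5 of 27 between NK1.1− KO and control cells, and for 5 of 27 between the KO arrays.

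Among members read by both suffixed and unsuffixed probe sets, the disagreement mostly followed the kind of probe set. It also arose within 1 kind. *Mcm7* had suffixed probe sets only, and its 4 ran from -4.49 to -0.20 between NK1.1+ KO and control cells. Affymetrix names end in _a_at, _s_at or _x_at where the probes match several transcripts or share sequence with others, and these are called suffixed here. For 16 members with both kinds measured, the median log2 difference between NK1.1+ KO and control cells was -0.21 on suffixed and -1.55 on unsuffixed probe sets. The suffixed value was above the unsuffixed value in 14 of the 16 (87.5%), beside 61.6% of 2227 genes overall. Lower calls numbered 1 with the suffixed and 13 with the unsuffixed probe sets. Between NK1.1− KO and control cells the medians over 18 members were 1.18 and 0.77, with 11 and 8 higher calls. Where each kind of probe set lies along its transcript is not known here, and the part of RNA completeness in the disagreement was not tested.

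Single genes show its size. *Mcm5* on its brightest unsuffixed probe set read 12.8 in NK1.1+ KO cells, 248 in NK1.1− KO cells and 135 in control cells, so that NK1.1+ KO cells differed from control by -3.40 on the log2 scale, against -0.14 on the suffixed set. *Mcm4* read 294, 782 and 605 on its unsuffixed set, a log2 difference of -1.04 between NK1.1+ KO and control cells, where the suffixed set gave 1.28. *Rrm2* read 38.1, 518 and 103 on its unsuffixed set, with -1.44 between NK1.1+ KO and control cells against 0.75 on the suffixed set. For *Rrm2* both kinds still placed NK1.1− KO cells above control, by 2.38 and 2.33. *Rpa1* read 528, 891 and 1153 on its unsuffixed set, -1.13 between NK1.1+ KO and control cells. *Rpa2* went the other way, with -0.89 on the suffixed and 0.71 on the unsuffixed set. Under all 10 other settings tried, the members still called above control in NK1.1− KO cells were *Cdc6*, *Gmnn*, *Prim1*, *Lig1*, *Rrm2*, *Tk1*, *Clspn* and *Dtl*. Those still called below control in NK1.1+ KO cells under all 10 were *Mcm3*, *Pole2*, *Pcna*, *Lig1* and *Rrm1*.

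**Figure D4:**
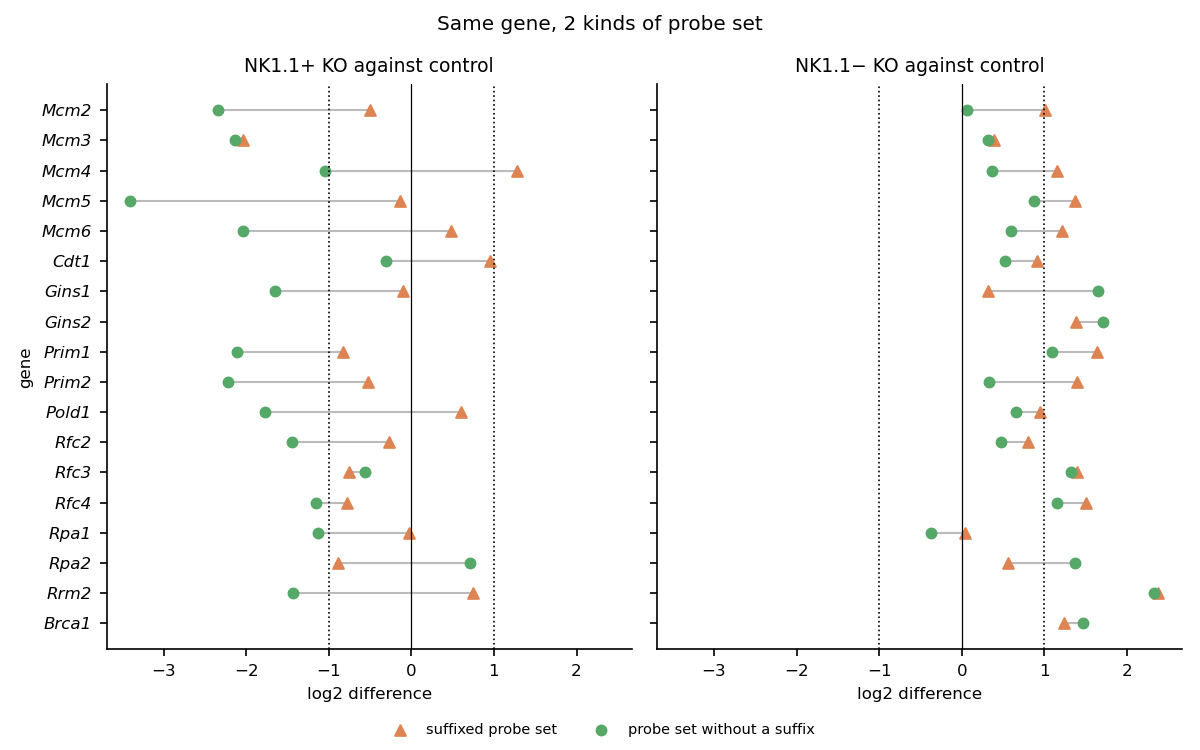
Log2 difference from the control array for members read by both kinds of probe set, in NK1.1+ KO (left) and NK1.1− KO cells (right). Triangles are suffixed and circles unsuffixed probe sets of the same gene, joined by a line, and dotted lines mark the 2-fold limits. In the left panel 14 of 16 triangles lie to the right of their circle.

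A further 85 genes of the same pathways, in 6 lists, were set beside the members. Between NK1.1− KO and control cells 21 of 83 measured (25.3%) were called higher and 4 (4.82%) lower, and the median was 0.15 on the log2 scale. Over all measured genes 8.04% were higher and 5.54% lower. Between NK1.1+ KO and control cells 2 of 81 (2.47%) were called higher and 35 (43.2%) lower, with a median of -0.59. All measured genes gave 9.83% and 22.8%. Against NK1.1− KO cells, 1 of 82 (1.22%) was called higher and 47 (57.3%) lower in NK1.1+ KO cells, with a median of -1.18. For all measured genes the shares were 6.53% and 21.2%.

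Between NK1.1− KO and control cells the lists held different shares of calls. Of 19 E2F and S phase regulators, 9 were called higher than control and 0 lower, with a median of 0.95. *E2f7*, an E2F that represses transcription, read 11.3 in NK1.1+ KO cells, 122 in NK1.1− KO cells and 11.1 in control cells, 10.9-fold higher in NK1.1− KO than control cells. *Ccna2*, the cyclin A of S phase and G2, read 58.2, 437 and 49.3, 8.85-fold higher in NK1.1− KO than control cells. Of 9 replication-coupled chromatin genes 4 were called higher, and *Asf1b*, a histone H3 and H4 chaperone, was 3.95-fold higher in NK1.1− KO than control cells. *Asf1a*, its paralog, was not called there, at 745 in NK1.1− KO cells, against 1011 in control cells. Of 16 other polymerase, loader and lagging-strand genes 5 were called higher and 0 lower, among them *Top2a*, which untangles replicated DNA, at 262, 2323 and 648. Of 12 other origin and helicase genes 3 were called higher and 1 lower. *Wdhd1*, which links the helicase to polymerase α, read 192.5, 564 and 207, and was called higher in NK1.1− KO cells. *Cdc7*, the kinase that starts origins, read 129, 599 and 558, and *Gins4*, the remaining GINS subunit, read 38.6, 156 and 117. These last genes were not called between NK1.1− KO and control cells.

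Few genes that make nucleotide precursors were called between NK1.1− KO and control cells. Of 15 purine and pyrimidine synthesis genes, NK1.1− KO cells had 0 (0%) called above control cells and 2 (13.3%) below. The shares over all measured genes were 8.04% and 5.54%. The median of the list was -0.28 on the log2 scale. *Gart*, a purine synthesis enzyme, read 60.4 in NK1.1+ KO cells, 339 in NK1.1− KO cells and 1176 in control cells, and its 4 probe sets ranged from -1.80 to -0.56 between NK1.1− KO and control cells. *Pfas*, another enzyme of the same pathway, read 38.0, 85.2 and 292, a log2 difference of -1.78 between NK1.1− KO and control cells. Between NK1.1+ KO and control cells 12 of the 15 (80%) were called lower, beside 22.8% of all measured genes, with a median of -1.60. Of 12 other deoxynucleotide and thymidylate genes, 0 were called higher and 1 lower in NK1.1− KO than control cells. *Tk2*, the mitochondrial thymidine kinase, read 14.7, 36.0 and 60.7, in contrast to the S phase kinase *Tk1*. *Nme1*, a nucleoside diphosphate kinase, read 172, 580 and 691.

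Some genes lay near control in NK1.1− KO cells and well below it in NK1.1+ KO cells. *Timeless*, the partner of TIPIN at the fork, read 20.9 in NK1.1+ KO cells, 330.2 in NK1.1− KO cells and 288 in control cells, and its log2 difference between NK1.1+ KO and control cells was -3.78 and -2.18 on its 2 probe sets. *Rnaseh2a*, the catalytic subunit of RNase H2, read 18.6, 156 and 177. Outside replication, 8 of 9 T cell markers and 4 of 9 housekeeping genes were also called lower in NK1.1+ KO than control cells, beside 22.8% of all measured genes. None of the 9 housekeeping genes was called between NK1.1− KO and control cells. Whether the lower replication signal of NK1.1+ KO cells is shared with those genes was not tested.

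**Figure D5:**
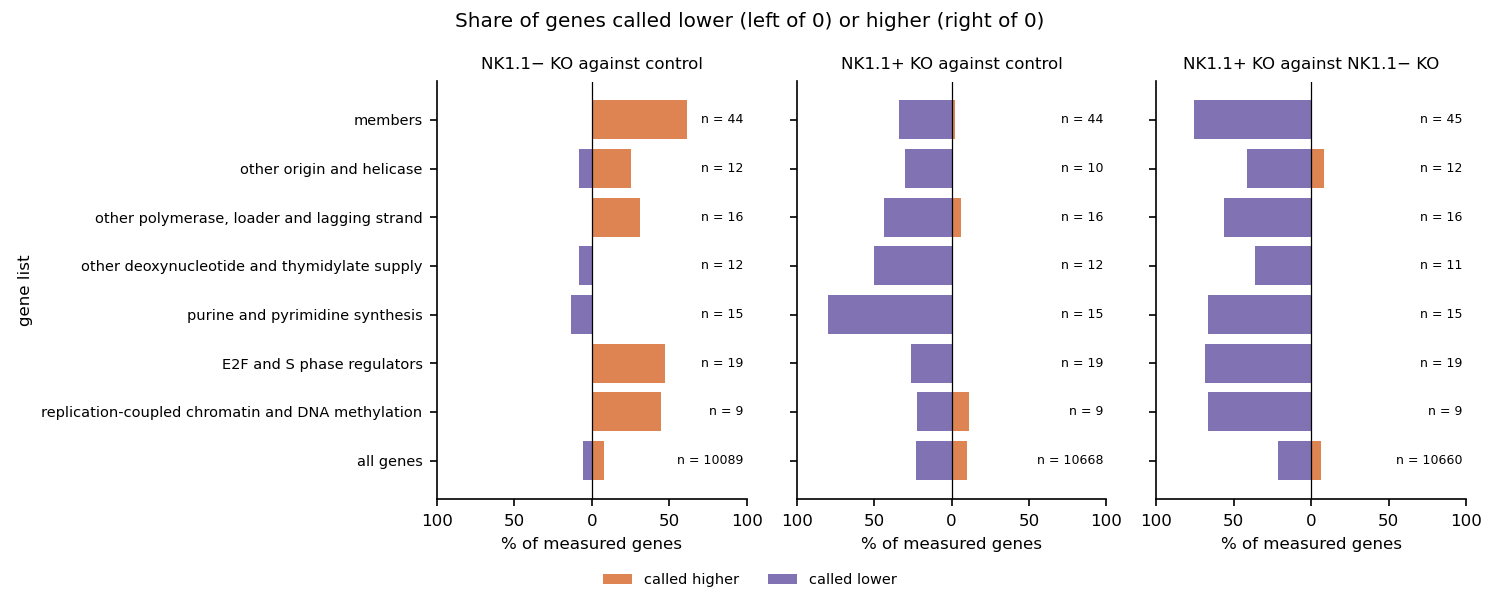
Share of measured genes called lower (left of 0) or higher (right of 0) in each comparison, for the members, the 6 lists of other pathway genes and all genes, with n the number measured. In NK1.1− KO against control cells 61.4% of members lie on the higher side, beside 8.04% of all genes, and the purine and pyrimidine synthesis list has 0 there.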

How the data were processed

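RNA of 3 groups of sorted T cells was read on 1 array each. The deposited values are intensity values on the linear scale per probe set, made by the authors with GCRMA 1.1.3 per the submitters' processing notes; the settings of that method were not stated there. Array medians of 8.99, 8.24 and 8.18 for NK1.1+ KO, NK1.1− KO and control cells show that the deposited distributions were not identical. The number of arrays, not a read depth, limits the precision. Of 45101 probe sets, 34945 were annotated to 1 gene symbol, 932 to several and 9160 to none, and 64 were array controls.

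Values were taken to log2 after raising those under the level to it. That level, an intensity of 9.57, was the 95th percentile, across all 3 arrays, of the values of 142 probe sets for genes silent in T cells. A 2-fold limit made the calls, over all genes measured on either array. No test was run. Promoter windows came from RefSeq. Work used Python 3.11.15, numpy 2.4.6 and pandas 2.3.3, and the calling steps were tested on simulated data.

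The members and lists were chosen with earlier results of these data known. Every member is described. Values are given on all arrays, by role group, for the largest difference between NK1.1− KO and control cells, the largest between KO arrays and any member against its group. Of other lists, the 2 or 3 genes with the largest difference in any comparison are named. Other settings covered the level, the probe set used, the fold limit and the scaling.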

Additional observations from a re-analysis of the deposited data

Results flagged for a closer look

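For 9 of 45 members (20%) NK1.1+ KO cells were called lower, and NK1.1− KO cells higher, than the control array that both comparisons share, beside 47 of 10856 genes (0.433%) in all, counts that describe these arrays only. The difference between the KO groups was not tested, since each had 1 array. Their log2 differences, NK1.1+ minus NK1.1− KO, were -4.76 for *Tk1*, -4.07 for *Rrm1*, -4.04 for *Cdc6*, -3.73 for *Lig1*, -3.71 for *Mcm10*, -3.55 for *Dut*, -3.43 for *Brca1*, -3.30 for *Gins1* and -2.92 for *Gins3*. The *Tk1* value in NK1.1+ KO cells, 10.4, lay close to the level of measurement. The RNA measures and the marker levels of other cells that differ on the NK1.1+ KO array stand beside these values, and their part was not tested.

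A probe set annotated to both *Tyms* and its pseudogene *Tyms-ps*, and so outside the members, gave a signal that the probe sets of *Tyms* alone did not. It read 10.1 in NK1.1+ KO cells, 271 in NK1.1− KO cells and 57.0 in control cells, 4.76-fold higher in NK1.1− KO cells and 5.66-fold lower in NK1.1+ KO cells than control cells. The gene and the pseudogene cannot be told apart on it.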

How the results depend on the processing

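No paired analysis was possible because each group had 1 array, and for the same reason no replicate could be left out. Over 10 other settings the number of members called higher in NK1.1− KO than control cells, 27 as reported, ran from 11 to 37, and the median log2 difference from 0.79 to 1.31. It was 14 with the mean of all probe sets of a gene and 11 with a 3-fold limit, and 27 with a level and a choice of probe set taken from the NK1.1− KO and control arrays alone, a setting chosen after seeing the data. Members called lower in NK1.1+ KO than control cells, 15 as reported, numbered 9 with the 75th percentile of every value as the level, 24 with unsuffixed probe sets, 24 with a 1.5-fold limit and 34 with scaling to the hybridisation controls. That scaling moved the median of all genes to -1.35 between NK1.1+ KO and control cells and to -1.50 between NK1.1+ and NK1.1− KO cells, where the members' median became -3.24. Members called higher in NK1.1+ KO than control cells, 1 as reported, numbered 0 with the mean of all probe sets, unsuffixed probe sets, a 3-fold limit or hybridisation scaling, 2 with quantile normalization, 3 with centring on the median and 6 with a 1.5-fold limit. *Mcm4* reversed between NK1.1+ KO and control cells, to -1.04 on unsuffixed probe sets. Between NK1.1+ and NK1.1− KO cells 26 to 43 members were called lower, 34 as reported, and 1 was called higher with a 1.5-fold limit. Apart from the choice of limit, the cause of these moves was not tested.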

Other observations

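The following genes of the other lists were chosen after their values were seen, because they run against their lists. *Dna2*, a nuclease and helicase that trims Okazaki fragments, read 210.4 in NK1.1+ KO cells, 330.0 in NK1.1− KO cells and 49.7 in control cells, and so was called higher than control on both KO arrays. Its probe sets ranged from 0.22 to 2.73 on the log2 scale between NK1.1− KO and control cells. *Mcmbp*, whose protein binds the MCM helicase, read 1588 in NK1.1+ KO cells, 605 in NK1.1− KO cells and 1571 in control cells on its brightest probe set, the reverse of most members. Over its 3 probe sets the log2 difference between NK1.1+ and NK1.1− KO cells ran from -3.15 to 1.39, so that its direction depends on the probe set.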
